A study of Mus musculus with 18 samples.

Results

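The comparison of the 2 genotypes without TNF receptor blockade used 5 of 18 arrays, 2 of untreated JAK2V617F+ cells (replicates 1 and 2) and 3 of untreated JAK2V617F- cells. They were taken by their sample titles, and all 10335 probe sets were compared. A further array of untreated JAK2V617F+ cells (replicate 3), which the study left out for its quality, is shown only as a check. The cells came from Balb/c mice with an established myeloproliferative neoplasm (MPN), raised by a retrovirus that carried JAK2V617F together with GFP. Marrow of several mice was harvested for each of 3 experiments and cultured for 16 h with the growth factors SCF (100 ng/mL) and IL-3 (50 ng/mL). Lin-Kit+ cells were then sorted into GFP+ (JAK2V617F+) and GFP- (JAK2V617F-) cells, so both groups shared the same marrow, host and cytokines. No blocking antibody (BA) was added here, while the other 12 arrays came from the same cells with a TNFR1 BA or a TNFR2 BA at 10 µg/mL. The sources used here do not say whether the GFP- cells were recipient cells or untransduced donor cells, and a retroviral transgene is not under the Jak2 promoter.

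JAK2 is the kinase that sits on the receptors for erythropoietin, thrombopoietin and related cytokines and activates STAT transcription factors. The V617F change lifts the restraint of its pseudokinase domain, so that the kinase signals with little or no cytokine, and it is the most common driver of polycythemia vera, essential thrombocythemia and myelofibrosis. Progenitors with the mutation give rise to excess red cells, platelets and granulocytes, and mast cells and basophils also belong to the MPN clone. In a bulk sample, fewer cells of a type and less RNA per cell cannot be told apart.

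Values are log2 signals as deposited, and a difference is always JAK2V617F+ minus JAK2V617F-, so that 1 unit is a doubling. The lowest signal in the table was 2.22, shared by many probe sets, and no detection calls are used here. The 17 arrays in the fit had median signals between 7.41 and 7.75, while the excluded array had a median of 6.05 and 36.5% of its probe sets under 4. The 2 JAK2V617F+ arrays were less alike than the controls. Their correlation was 0.668 across probe sets, against 0.746 to 0.819 among the 3 JAK2V617F- arrays, and 8.75% of probe sets differed by more than 5 log2 units between them, against 2.68% to 4.88% among the controls. The probe set for Jak2 read 10.77 and 8.35 in JAK2V617F+ and 9.94, 8.86 and 8.33 in JAK2V617F- cells. These values overlapped, and since the place of the probes relative to the transgene is not known here, they do not check the labels. Kit, the receptor used for the sort, read 7.17 and 5.81 against 8.07, 8.64 and 4.92, which also overlapped. The 3 measured Y-linked genes had summed signals of 12.6 and 8.2 against 13.1, 11.8 and 18.1, and 0 of them had an unadjusted p under 0.05.

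In untreated cells, 6 probe sets rose and 2 fell in JAK2V617F+ relative to JAK2V617F- cells. The 6 that rose were the mast cell tryptases Tpsab1 and Tpsb2, the serotonin enzyme Tph1, the transcription factor Mycn, the cytokine Lif and the membrane protein Itm2a. The 2 that fell were the clock repressor Cry2 and the caspase inhibitor Xiap. The 8 calls are 0.0774% of the 10335 probe sets tested (limma, adjusted p under 0.05), with 0.0581% higher and 0.0194% lower. At an unadjusted p under 0.05 there were 757 probe sets (7.32%), of which 295 were higher (2.85%) and 462 lower (4.47%). At 0.01 there were 202 (1.95%), of which 84 were higher (0.813%) and 118 lower (1.14%). The median difference over all genes was -0.08, with quartiles of -1.03 and 0.81. With 2 arrays against 3, an exact permutation test of 1 gene cannot give a two-sided p below 0.2, and the calls rest on the spread that limma shared over the 17 arrays. When only the 5 untreated arrays were fitted, 0 probe sets passed and 656 had an unadjusted p under 0.05.

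**Figure D1:**
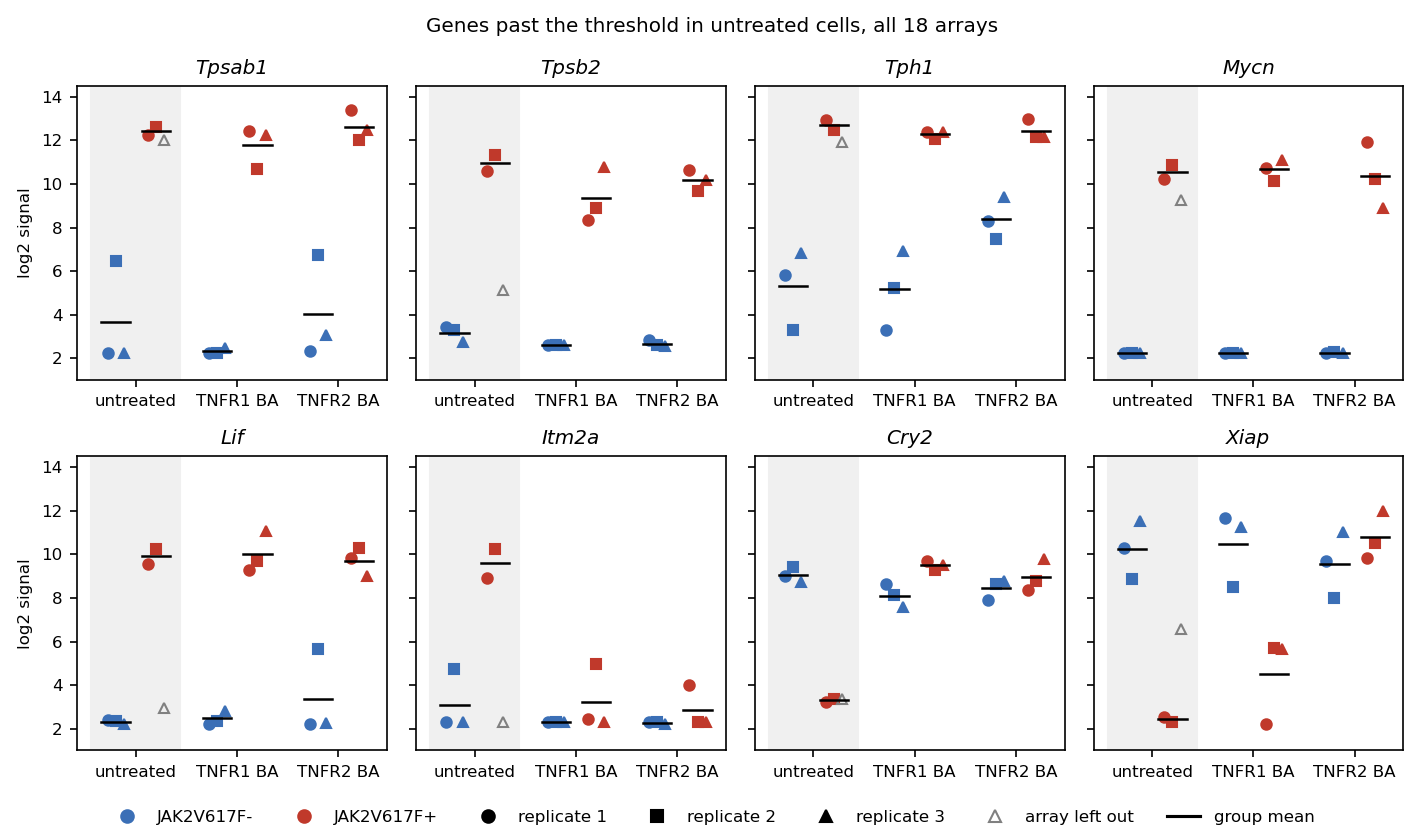
Log2 signal (vertical axis) of the 8 genes past the threshold in untreated cells, for each array of the 6 groups (horizontal axis, treatment; colour, genotype; marker, replicate number), with bars for group means and an open triangle for the array left out. The 5 genes Tpsab1, Tpsb2, Tph1, Mycn and Lif were separated between genotypes in all 3 treatments, while Itm2a read at most 4.99 under either BA and Cry2 was not lower in JAK2V617F+ cells under either BA.

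Mast cell and basophil genes had the highest median difference of the 24 gene lists. Mast cells store tryptase, chymase and carboxypeptidase in granules with histamine and serotonin, and release them through the high-affinity IgE receptor. Of 20 listed genes 13 were measured. Of these, 9 were higher at an unadjusted p under 0.05 and 0 lower, where 2.87% of all genes were higher, and 3 passed over all probe sets. The median difference of the list was 3.67. Its signals summed to 144.5 and 139.7 on the JAK2V617F+ arrays and to 87.2, 97.6 and 98.2 on the JAK2V617F- arrays, and the excluded array stood at 138.1, with the former. The count was also 9 with all 18 arrays. In that fit 1180 of all 10335 probe sets were below 0.05 in either direction, against 757 in the main fit. The list median was 2.10 and 2.79 without JAK2V617F+ replicate 1 or 2, and 1.73 and 3.39 without replicate 1 or 2 of both genotypes. These alternatives were added after the data were seen. The methods' paired test on single genes, from 2 pairs, left 1 of the 13, where 442 of all probe sets were below 0.05.

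Tpsab1 (probe set 1426175_a_at, chromosome 17), a tryptase of mast cell granules, read 12.23 and 12.60 on the JAK2V617F+ arrays and 2.25, 6.45 and 2.25 on the JAK2V617F- arrays. Control replicate 2 was the only control above the low range, and the groups lay more than 5 units apart. The difference was 8.77 (standard error 1.42, limma adjusted p = 0.0178). Tpsb2 (1422180_a_at, chromosome 17), its neighbour in the gene family, read 10.59 and 11.34 against 3.43, 3.31 and 2.74, a difference of 7.81 (standard error 1.13, limma adjusted p = 0.00749). Both tryptases were thus dim in most or all controls and bright on both JAK2V617F+ arrays. The 2 genes are close paralogs, and cross-hybridisation between their probe sets was not tested. Tph1 (1419524_at, chromosome 7), the rate-limiting enzyme of serotonin synthesis outside the brain, read 12.95 and 12.46 against 5.82, 3.31 and 6.83. It rose by 7.38 (standard error 1.07, limma adjusted p = 0.00749), and here the controls were scattered over more than 3 units.

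The other 6 members with an unadjusted p under 0.05 did not pass over all probe sets. Cma1, a chymase, read 13.78 and 13.27 against 6.68, 8.39 and 8.96, a difference of 5.51 (adjusted p = 0.213 in limma). Cpa3, the granule carboxypeptidase, read 13.94 and 14.06 against 11.22, 11.98 and 12.68. It was among the brightest genes in both genotypes, and its difference of 2.04 passed only with the replicate number as a block (limma adjusted p = 0.0455, against 0.385 without it). Cd200r3, an activating receptor of mast cells and basophils, read 7.09 and 9.66 against 2.28, 2.32 and 4.08. Hdc, which makes histamine, read 10.05 and 12.79 against 5.06, 9.92 and 8.26. Fcer1a, the IgE-binding chain, read 12.35 and 10.85 against 9.01, 9.07 and 10.57. In all 5 of these genes the genotypes did not overlap, although the gap was small for Hdc and Fcer1a. Il13, a cytokine, was different, with 10.45 on replicate 1 and the lowest value on replicate 2 and all controls, so its difference of 4.12 came from 1 array.

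Not every gene of the list followed. Ms4a2, the beta chain of the IgE receptor, had a difference of 1.54 without overlap but with an unadjusted p of 0.12 (limma). Mitf, a transcription factor of mast cells, had a difference of 0.39 and overlapping groups. Mcpt8, a basophil protease, read 11.65 and 12.24 against 11.63 to 12.42, a difference of -0.07. The excluded array read 13.67 for Mcpt8, and its differences were 1.38 under TNFR1 BA and 1.13 under TNFR2 BA. Slc18a2, the vesicle transporter that loads monoamines, had a difference of -0.89. On the 5 untreated arrays in use, the granule proteases of mast cells thus stood apart between genotypes, while the values of the basophil protease overlapped.

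**Figure D2:**
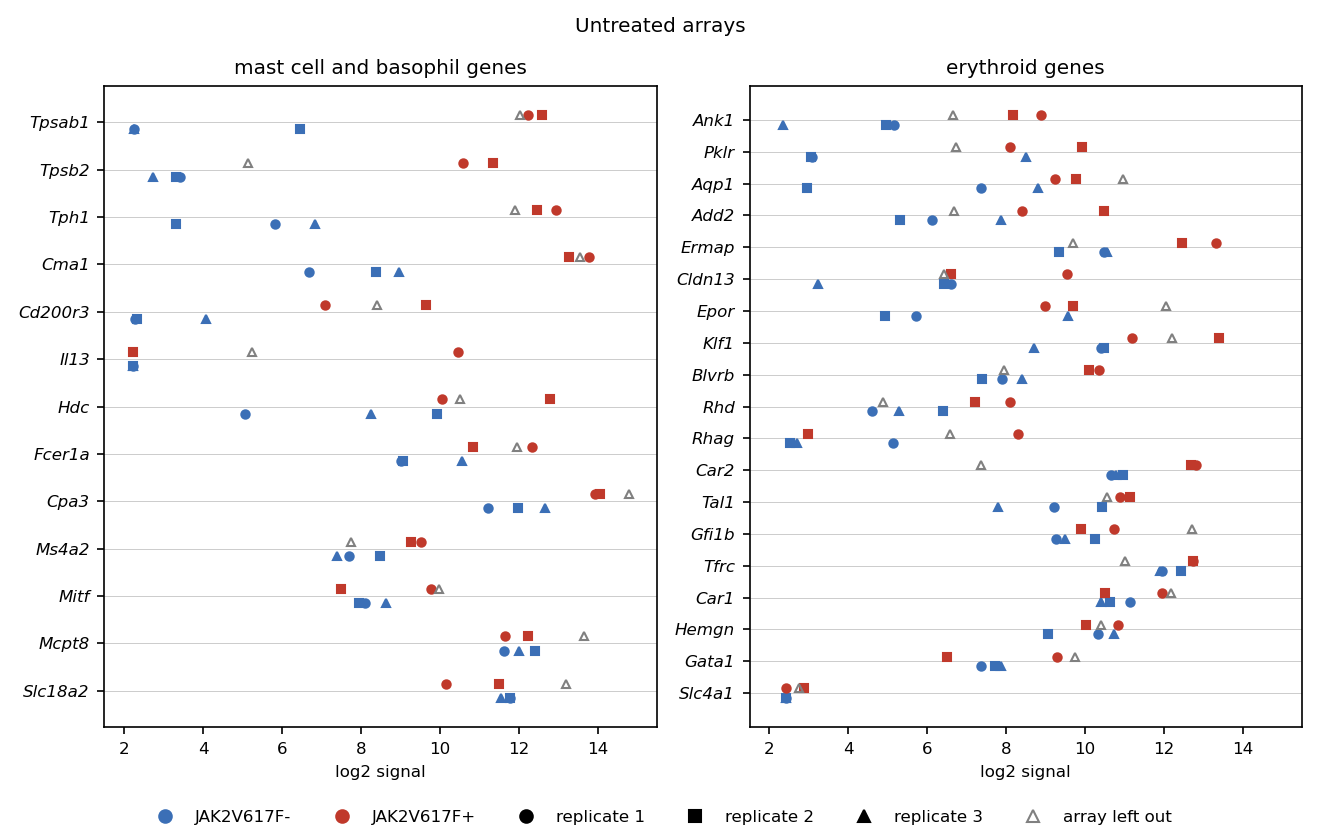
Log2 signal (horizontal axis) on each untreated array, with mast cell and basophil genes in the left panel and erythroid genes in the right one, ordered by the genotype difference and marked with genotype by colour, replicate number by marker and the array left out as an open triangle. Both JAK2V617F+ arrays lie to the right of all controls for Tpsab1, Tpsb2, Tph1, Cma1, Cd200r3, Hdc, Fcer1a and Cpa3, and the spread between arrays is wide for most erythroid genes.

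The promoters of 5 of these genes are printed because they were higher together and because GATA factors, which bind the letters GATA, are known regulators of both mast cell and erythroid genes. The windows run from 250 bases before to 50 bases after the start, from RefSeq on GRCm38.p6, 5′ to 3′ on the strand of the gene, and capitals mark GATAA or its reverse complement TTATC. They are Tph1 (chr7:46672488-46672787, minus strand, the first of 2 starts), Cma1 (chr14:55944626-55944925, minus strand), Cpa3 (chr3:20242132-20242431, minus strand), Fcer1a (chr1:173227180-173227479, minus strand) and Cd200r3 (chr16:44943428-44943727, plus strand).
Tph1: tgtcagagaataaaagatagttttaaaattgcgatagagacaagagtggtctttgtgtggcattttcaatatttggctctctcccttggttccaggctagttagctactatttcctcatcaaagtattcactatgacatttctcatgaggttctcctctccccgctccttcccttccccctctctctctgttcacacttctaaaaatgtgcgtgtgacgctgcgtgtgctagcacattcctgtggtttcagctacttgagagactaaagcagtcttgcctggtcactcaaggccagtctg
Cma1: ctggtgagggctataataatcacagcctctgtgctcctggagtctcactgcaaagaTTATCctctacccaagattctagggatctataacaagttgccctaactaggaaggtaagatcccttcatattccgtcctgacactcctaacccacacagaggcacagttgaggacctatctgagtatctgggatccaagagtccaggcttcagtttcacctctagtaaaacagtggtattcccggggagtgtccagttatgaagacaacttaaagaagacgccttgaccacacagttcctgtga
Cpa3: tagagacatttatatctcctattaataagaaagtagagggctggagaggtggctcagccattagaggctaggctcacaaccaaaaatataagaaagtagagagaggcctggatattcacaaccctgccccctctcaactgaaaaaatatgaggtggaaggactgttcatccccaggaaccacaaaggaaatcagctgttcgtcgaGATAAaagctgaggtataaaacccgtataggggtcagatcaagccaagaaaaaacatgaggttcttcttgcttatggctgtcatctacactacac
Fcer1a: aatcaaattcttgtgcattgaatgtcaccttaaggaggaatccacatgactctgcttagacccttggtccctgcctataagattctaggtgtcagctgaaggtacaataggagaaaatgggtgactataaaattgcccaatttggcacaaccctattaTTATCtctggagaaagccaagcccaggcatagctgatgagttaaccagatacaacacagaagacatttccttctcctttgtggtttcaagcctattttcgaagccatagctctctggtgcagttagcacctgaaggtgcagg
Cd200r3: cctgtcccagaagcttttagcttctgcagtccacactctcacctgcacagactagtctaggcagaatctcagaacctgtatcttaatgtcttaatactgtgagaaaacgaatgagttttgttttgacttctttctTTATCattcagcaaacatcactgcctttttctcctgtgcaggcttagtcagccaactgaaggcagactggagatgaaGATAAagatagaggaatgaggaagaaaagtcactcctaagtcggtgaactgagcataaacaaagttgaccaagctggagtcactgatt

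Cma1, Cpa3 and Fcer1a each had 1 match to GATAA and Cd200r3 had 2, while both Tph1 windows had 0. The letters GATA followed by a base other than A were not counted, and the printed Tph1 window holds such letters. Over the list, 8 of the 11 measured mast cell and basophil genes with a promoter in the table held GATAA on either strand, and 9 of 14 erythroid genes. A gene was counted if any of its windows held the letters. The share was 19% of the 7908 array genes matched by symbol and 28.4% of all 27025 genes. Of all 32851 single promoter windows it was 25.4%. The letters TTCNNNGAA, which STAT factors bind, were in the windows of 0 of 11 mast cell and basophil and 1 of 14 erythroid genes, against 8.24% of array genes. A match is a description of the sequence and not a bound site.

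Mycn (1425923_at, chromosome 12), a transcription factor of the Myc family, stood sharply apart between genotypes. It read 10.21 and 10.87 on the JAK2V617F+ arrays and the lowest value of the table, 2.22, on all 3 JAK2V617F- arrays. It rose by 8.33 (standard error 1.16, limma adjusted p = 0.00749), and the size depends on where that lowest value lies. It was the only one of 20 measured stem and progenitor genes with an unadjusted p under 0.05 in either direction, where 2.87% of all genes were higher and 4.50% lower, and the median of that list was 0.22. The related gene Myc was bright in all arrays, with 12.96 and 14.71 against 13.42, 13.59 and 13.21. Lmo2 and Cd48, the brightest of that list, each had a difference of 0.22 with overlapping groups.

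Lif (1450160_at, chromosome 11), a cytokine of the IL-6 family and a STAT target, read 9.58 and 10.24 against 2.40, 2.34 and 2.24. The genotypes were far apart and each was tight. It rose by 7.59 (standard error 1.26, limma adjusted p = 0.0188), but the excluded array read 2.97 and with all 18 arrays the call was lost (limma adjusted p = 0.238). Of the 14 measured cytokine and growth factor genes 13 had a positive difference, with a median of 1.09, and 3 had an unadjusted p under 0.05 (Lif, Il13 and Il6), where 2.87% of all genes were higher. Of these Il13 was high on 1 array alone. Il6, of the same cytokine family, read 8.19 and 6.92 against 5.14, 4.77 and 2.89, a difference of 3.29 (adjusted p = 0.682 in limma). Ccl3, a chemokine, had a difference of 2.40 without overlap and an unadjusted p of 0.18 (limma). Hgf and Vegfa, the brightest members, had differences of 0.43 and -0.34 with overlapping groups.

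Itm2a (1451047_at, chromosome X), a small membrane protein of differentiating cells, read 8.92 and 10.25 against 2.30, 4.72 and 2.30. It rose by 6.48 (standard error 1.09, limma adjusted p = 0.0188). The signal was near the lowest range in all other arrays, the excluded array included. Under TNFR1 BA the JAK2V617F+ arrays read 2.44, 4.99 and 2.30, and under TNFR2 BA 3.99, 2.30 and 2.30. Prdx2, a peroxiredoxin abundant in red cells, read 8.10 and 9.29 against 2.22, 2.63 and 2.25, a difference of 6.33 that did not pass (adjusted p = 0.213 in limma). Asb17, of the SOCS box family, read 8.87 and 9.38 against 2.22, 4.20 and 2.22, a difference of 6.25 (adjusted p = 0.385 in limma). Both were at 2.22 on the excluded array.

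Cry2 (1426383_at, chromosome 2) encodes a cryptochrome, a repressor in the feedback loop of the circadian clock. It read 3.24 and 3.37 on the JAK2V617F+ arrays and 9.0, 9.42 and 8.72 on the JAK2V617F- arrays, and both groups were tight. It fell by 5.74 on the log2 scale (standard error 0.86, limma adjusted p = 0.00801). On the TNFR1 BA arrays the order turned, with 9.69, 9.29 and 9.53 in JAK2V617F+ against 8.63, 8.12 and 7.59 in JAK2V617F- cells, and under TNFR2 BA the genotypes overlapped, with 8.36, 8.78 and 9.80 against 7.93, 8.64 and 8.78. The genotype difference in untreated cells was below the mean of the BA-treated ones by -6.70 (limma adjusted p = 0.0382), the only one of 10335 probe sets (0.00968%) where that difference passed, while 478 (4.63%) had an unadjusted p under 0.05. With the replicate block its adjusted p was 0.0586 in limma. The other clock genes did not follow. Of 13 measured, Cry2 alone had an unadjusted p under 0.05, where 4.50% of all genes were lower. Cry1 read 9.83 and 9.71 against 9.70, 9.16 and 10.32, and the median of the list was -0.59.

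Xiap (1421394_a_at, chromosome X), which binds and inhibits caspases, read 2.53 and 2.31 against 10.30, 8.87 and 11.55. The JAK2V617F+ arrays were near the lowest value and the controls high. It fell by 7.82 on the log2 scale (standard error 1.32, limma adjusted p = 0.0188). The difference was -5.97 under TNFR1 BA and 1.21 under TNFR2 BA, and the test of untreated against TNFR2 BA did not pass over all probe sets (-9.03, unadjusted p = 8.02e-05, adjusted p = 0.414 in limma). Mapk8, the stress kinase JNK1 that TNF activates, read 3.42 and 2.25 against 10.27, 10.26 and 8.61. Its difference of -6.88 had no overlap and did not pass (adjusted p = 0.142 in limma), and it was -2.85 under TNFR1 BA and -1.05 under TNFR2 BA.

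Among 32 measured genes of TNF receptor signalling, 1 was higher and 3 lower at an unadjusted p under 0.05, against 2.87% and 4.50% of all genes, and the median difference was 0.07. The receptors themselves overlapped between genotypes. Tnfrsf1a (TNFR1) had a difference of 0.22 and Tnfrsf1b (TNFR2) read 11.25 and 10.90 against 11.50, 9.43 and 11.86, a difference of 0.14. Besides Xiap and Mapk8, the genes with an unadjusted p under 0.05 were Sharpin, a subunit of the linear ubiquitin ligase, with a difference of -0.86, and Adam17, which sheds TNF and its receptors, with 3.04. Of 28 apoptosis genes 21 had a negative difference, with a median of -0.32. Xiap, Birc5 (another inhibitor of apoptosis protein, -1.47) and Diablo (an antagonist of such proteins, -1.68) had an unadjusted p under 0.05. In both Birc5 and Diablo the JAK2V617F+ arrays disagreed, with 12.08 and 9.73 for Birc5 and 10.03 and 8.02 for Diablo, so the low values came from replicate 2. Of 32 MAP kinase genes Mapk8 alone had an unadjusted p under 0.05, and the median was -0.24.

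NF-kB targets had differences in both directions, none of which passed over all probe sets. Of 25 measured, 2 were higher and 4 lower at an unadjusted p under 0.05, where 2.87% and 4.50% of all genes were. Without overlap between the genotypes by more than 0.1, 4 were higher and 8 lower, where 8.78% and 10.0% of all genes were. Nfkbia, the inhibitor that NF-kB induces as feedback, read 9.37 and 7.68 against 11.20, 10.54 and 11.09. All controls were above both JAK2V617F+ arrays, by a mean of 2.42, with an adjusted p of 0.481 in limma. Vcam1, an adhesion molecule, read 2.46 and 2.46 against 9.09, 8.53 and 10.22, but the excluded array read 8.47. Icam1 (-2.70), Cd83 (-4.31), Tnfaip2 (2.59) and Il6 were the others below 0.05, and Tnfaip3, the feedback deubiquitinase A20, had a difference of -3.46 without overlap and an unadjusted p of 0.068 (limma).

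The JAK-STAT genes did not stand apart as a group. The 17 measured targets had a median difference of 0.21, with Lif and Il2ra higher at an unadjusted p under 0.05, where 2.87% of all genes were. Il2ra, the IL-2 receptor alpha chain induced by STAT5, read 10.66 and 11.60 against 9.05, 8.32 and 3.47. The feedback inhibitors gave small values, with differences of 0.03 for Cish, 0.19 for Socs2 and 0.21 for Socs3. Pim1, a kinase gene induced by STAT5, had a difference of 0.95. Of 21 components and receptors, Csf2rb2, the IL-3 receptor beta chain, read 12.16 and 12.80 against 11.26, 11.44 and 10.34. Its groups did not overlap (difference 1.47, unadjusted p = 0.00994 in limma). Stat4 had a difference of 2.67 (unadjusted p = 0.0282 in limma), and the median of these 21 genes was -0.29.

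All 19 measured erythroid genes had a positive difference, with a median of 2.23, and 6 of them had an unadjusted p under 0.05, where 2.87% of all genes were higher, while 0 passed over all probe sets. In 10 of the 19 the genotypes did not overlap, against 8.78% of all genes. Car2, a carbonic anhydrase of red cell precursors, read 12.80 and 12.70 against 10.66, 10.97 and 10.78. This was a tight separation with a difference of 1.94 (limma adjusted p = 0.314), yet the excluded array read 7.37. Ermap, a membrane protein of erythroid cells, read 13.33 and 12.45 against 10.47, 9.35 and 10.56, a difference of 2.76. Tal1 (1.86), a master transcription factor of the lineage, Blvrb (2.33), which reduces biliverdin, Pklr (4.14), the red cell pyruvate kinase, and Ank1 (4.37), which anchors the membrane skeleton, were the others. Pklr overlapped, since control replicate 3 read 8.49. Klf1, the erythroid Krüppel-like factor, had a difference of 2.42 without overlap, and Gata1 one of 0.25 with overlap. The count of 6 was 3 with all 18 arrays. In that fit 1180 of all 10335 probe sets had an unadjusted p under 0.05 in either direction, against 757 in the main fit. The erythroid median was 1.89 without JAK2V617F+ replicate 1 and 1.999 without JAK2V617F+ replicate 2. It was 1.82 without replicate 1 of both genotypes. These alternatives were added after the data were seen. The 9 measured genes of heme synthesis had a median of 1.42 and 0 with an unadjusted p under 0.05, and Alas1, the form outside the red cell lineage, had a difference of -0.12.

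Megakaryocyte genes had a median difference of 1.12 over 14 genes, 12 of them positive and 0 with an unadjusted p under 0.05. With the replicate number as a block 4 were higher at that threshold, and without replicate 3 of both genotypes 3 were. In these fits 829 and 720 of all 10335 probe sets were below it in either direction. The list median was 0.37 without replicate 2 of both genotypes. It was 0.57 without JAK2V617F+ replicate 2 and 1.38 without JAK2V617F+ replicate 1. Pf4, a chemokine of platelet granules, read 11.68 and 12.27 against 10.90, 9.98 and 11.54. The genotypes did not overlap, but the gap to control replicate 3 was small. Levels of granulocyte genes ran from near the lowest value in both genotypes, as for Mmp8, a collagenase, to very bright. Elane, a neutrophil protease gene, read 13.40 and 14.27 against 13.48, 13.28 and 14.14, which overlapped. The median of the 15 granulocyte genes was -0.53. Chil3 (-1.54), a secreted chitinase-like protein, was the only one with an unadjusted p under 0.05, where 4.50% of all genes were lower. It read 13.25 and 9.99 against 13.29, 12.59 and 13.61, so the groups overlapped and the low value came from replicate 2. With the replicate number as a block 6 of the 15 were lower at that threshold. Of all 10335 probe sets 829 were then below it in either direction, against 757 in the main fit. With all 18 arrays 0 of the 15 were lower at that threshold, where 1180 of all 10335 probe sets were below it. The list median was -1.39 without JAK2V617F+ replicate 1 and 0.025 without JAK2V617F+ replicate 2. Ltf, lactoferrin, read 10.07 and 3.38 in JAK2V617F+ and 11.39, 6.15 and 11.53 in JAK2V617F- cells, and Lcn2 read 11.00 and 3.49 against 11.47, 7.57 and 11.39. In both of these genes replicate 2 read lower than the other arrays of its genotype in use.

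The medians of the lists of other lineages lay below 0. The 10 measured B cell genes had a median of -1.78, with summed signals of 36.6 and 43.5 against 78.2, 64.9 and 34.4, so that control replicate 3 lay with the JAK2V617F+ arrays. Dntt, the enzyme that adds bases to antigen receptor joints, read 2.74 and 5.93 against 10.20, 11.06 and 7.97 (difference -5.41, limma adjusted p = 0.587). Vpreb1, the surrogate light chain, read 2.22 and 7.24 against 10.31, 9.77 and 2.25. Of all genes, 2.87% were higher and 4.50% lower at an unadjusted p under 0.05. Of the 20 monocyte, macrophage and dendritic cell genes 16 had a negative difference, with a median of -1.50. H2-Aa (-2.89), an MHC class II chain, and Ly86 (-4.68), a partner of a Toll-like receptor, had an unadjusted p under 0.05. Summed signals of that list were 116.7 and 148.5 against 175.9, 168.1 and 131.7, which overlapped. Of 9 T and NK cell genes, Lat (3.90), an adaptor that mast cells also use, and Gzmb (1.48) were higher and Cd8a (-2.23) and Klrd1 (-4.05) lower at an unadjusted p under 0.05, and the list median was -0.94. The 4 eosinophil genes had a median of -0.68, with Prg2 (-2.73) below 0.05, and the 5 genes of stroma and endothelium a median of -0.002, with Vcam1 below 0.05. The part of these lineages in the differences of other genes was not tested.

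Of 31 cell cycle genes, the cyclin gene Ccnd3 (1.61) and the replication helicase gene Mcm3 (1.34) had an unadjusted p under 0.05. At that threshold 2.87% of all genes were higher, and the median of the list was 0.27. Rrm2, Ccna2 and Hsp90aa1, bright in every array, had differences of 0.27, 0.28 and -0.04. The medians were 0.35 for 15 interferon response genes, where Oasl1 (4.04) was the only one below 0.05, 0.85 for 14 immediate early and heat shock genes, with 0 below 0.05, and 0 for 13 antioxidant genes, where Prdx2 alone was below it.

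**Figure D3:**
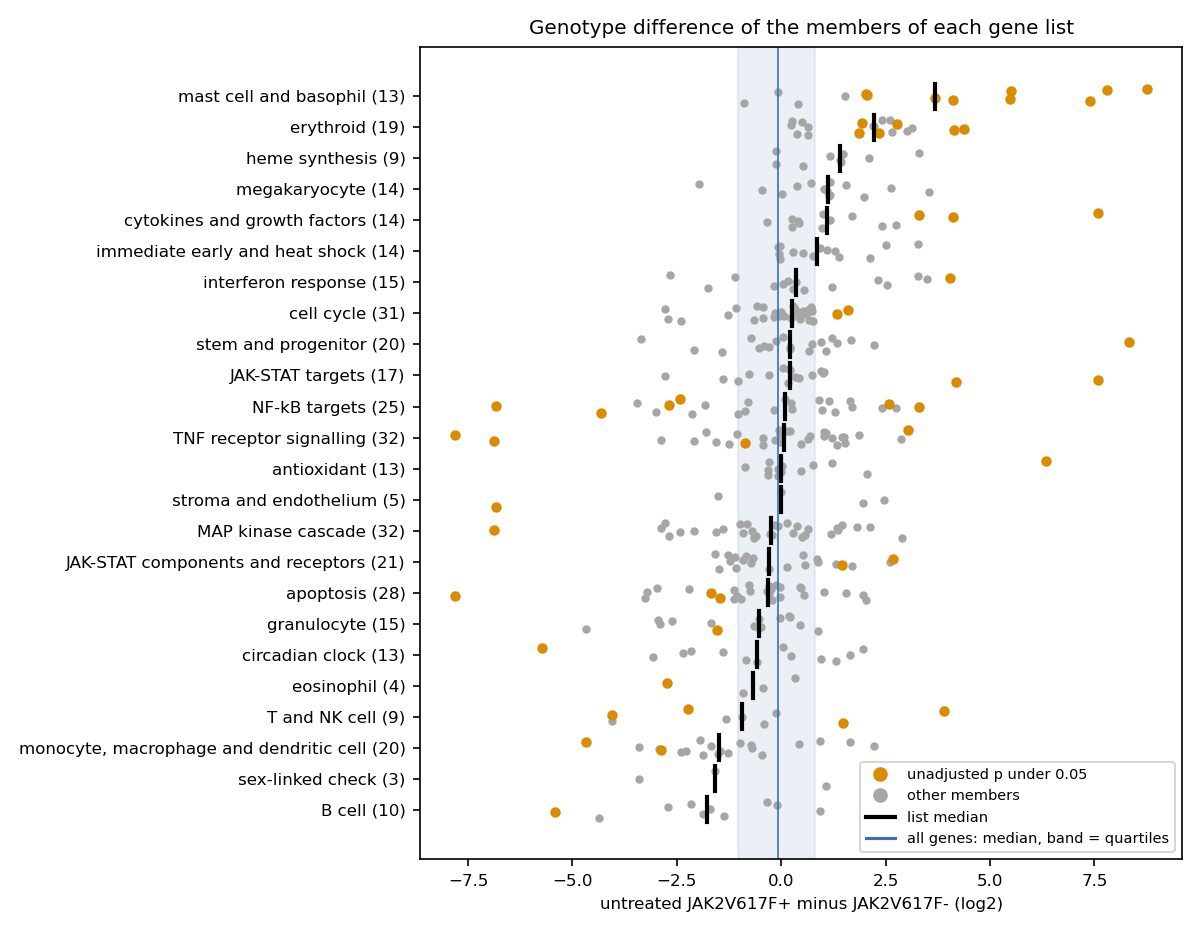
Genotype difference in untreated cells (horizontal axis, log2) of each measured member of the gene lists (vertical axis, number of genes in brackets), with members at an unadjusted p under 0.05 in orange, list medians as black bars, and the median and quartiles of all genes in blue. The medians of 6 lists lie beyond the upper quartile of all genes, 0.81, namely mast cell (3.67), erythroid (2.23), heme synthesis (1.42), megakaryocyte (1.12), cytokines (1.09) and immediate early and heat shock (0.85), and Xiap, Mapk8 and Cry2 lie far from the medians of their lists.

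Outside the lists, the largest differences at an unadjusted p under 0.01 without overlap included genes that did not pass over all probe sets. On the higher side, Anpep, an aminopeptidase of myeloid cells, read 8.77 and 10.50 against 2.65, 2.38 and 2.83 (difference 7.02), and Rnf128, a ubiquitin ligase, read 9.58 and 10.58 against 3.57, 2.22 and 3.81 (6.88). These 2 genes kept their sign under both BAs, with differences of 2.65 and 7.24 for Anpep and of 3.50 and 6.13 for Rnf128. The G protein-coupled receptor gene Gpr176 (6.85), the transcription factor gene Creb3l1 (6.61) and the co-chaperone gene Dnajb2 (6.28) followed. On the lower side were the phosphodiesterase Pde7a (-7.04), Thap2 (-6.50), Auts2 (-6.50), the receptor P2ry10 (-6.40), the metabolic enzyme D2hgdh (-6.23), Lin7c (-5.90), 2700099C18Rik (-5.81), Eloc (-5.77), a subunit of ubiquitin ligases, and Spib (-5.76), a transcription factor of B cells and plasmacytoid dendritic cells. Spib read 2.31 and 2.31 against 8.39, 7.80 and 8.02, and its difference was -2.27 and -2.91 under the BAs. In Thap2 and Lin7c the excluded array read 8.72 and 9.25, at the level of the controls.

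Replicates 1 and 2 gave unlike differences over most of the array. Across all probe sets, the differences within replicate 1 and within replicate 2 correlated by 0.069 (Spearman 0.058) and had the same sign in 50.4%. This is a correlation across probe sets of single arrays, which are not independent replicates. The 8 called genes had the same sign in both, having been called on the same arrays. Their values ranged from close, with -5.76 and -6.05 for Cry2 and 7.99 and 8.66 for Mycn, to far apart, with 7.12 and 9.15 for Tph1 and 9.99 and 6.15 for Tpsab1.

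The arrays with a BA hold the same genotypes from the same 3 experiments and share no array with the untreated comparison. Both tests took the spread of each probe set from the same fit of 17 arrays, so they are not independent. A probe set with a small spread is favoured in both, and its part in the counts below was not tested. Of the 84 probe sets higher at an unadjusted p under 0.01 in untreated cells, 36 (42.9%) were also higher at an unadjusted p under 0.05 in the mean of both BAs, against 7.15% of all probe sets with a positive untreated difference and 4.70% of all probe sets. Of the 118 lower ones 5 (4.24%) were also lower, against 4.18% of all with a negative difference and 3.10% of all probe sets. The share was thus above the background for the higher probe sets and near it for the lower ones. Of the 6 that rose, 5 also passed for the mean of both BAs, with differences of 9.03 for Tpsab1, 8.29 for Mycn, 7.12 for Tpsb2, 6.96 for Lif and 5.58 for Tph1 (limma adjusted p from 1.71e-05 for Mycn to 0.000369 for Tph1). That test called 25 probe sets higher (0.242%) and 4 lower (0.0387%). Itm2a (0.76), Cry2 (0.96) and Xiap (-2.38) did not pass there, with limma adjusted p of 0.861, 0.731 and 0.489.

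**Figure D4:**
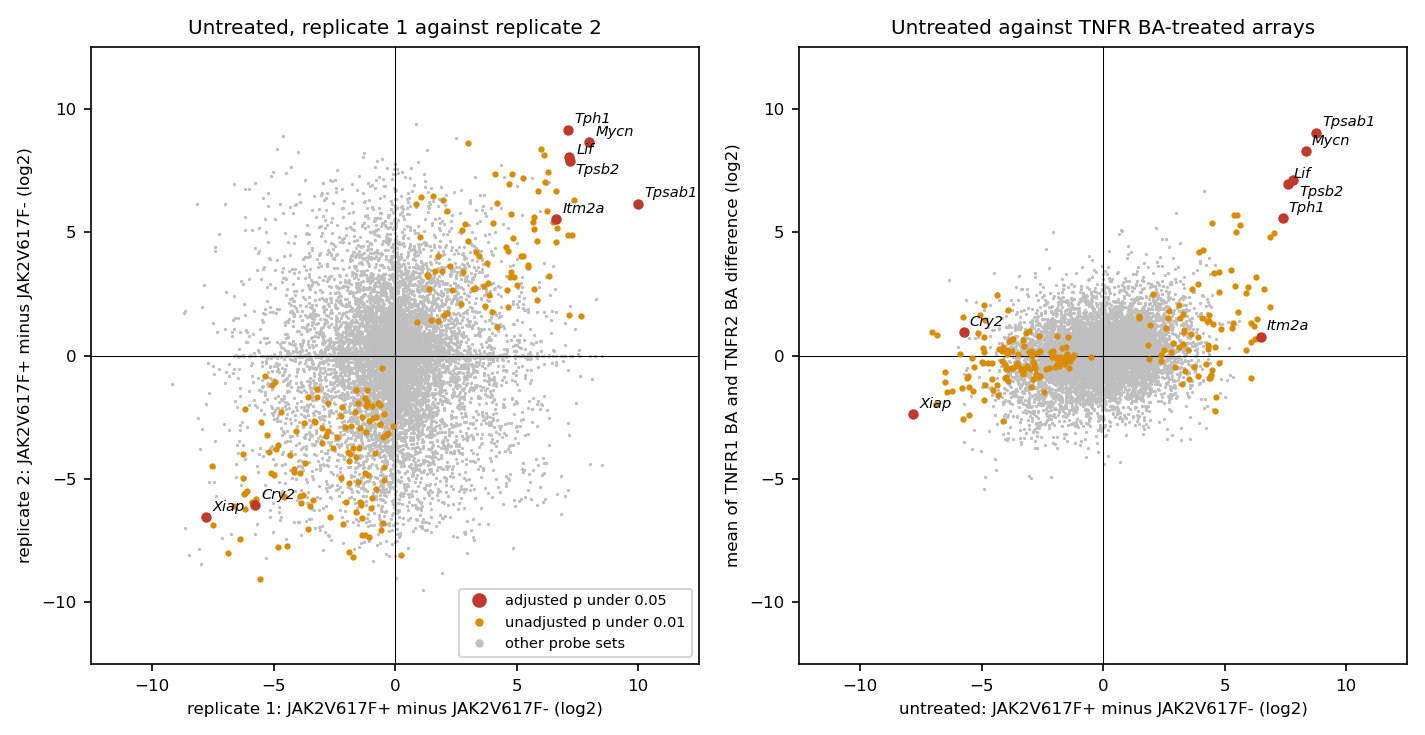
Left, JAK2V617F+ minus JAK2V617F- (log2) of each probe set in untreated replicate 1 (horizontal axis) and replicate 2 (vertical axis), and right, the untreated difference (horizontal axis) and the mean of the TNFR1 BA and TNFR2 BA differences (vertical axis), with red for the 8 probe sets past the threshold and orange for an unadjusted p under 0.01. The orange points of the left panel were chosen on those arrays, and on the right Tpsab1, Mycn, Tpsb2, Lif and Tph1 lie far above 0 while Cry2 and Itm2a lie near it.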

How the data were processed

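RNA of sorted Lin-Kit+ cells was amplified and biotin-labelled with NuGEN kits and measured on Affymetrix mouse arrays. The deposited values are log2 signals that came from Affymetrix Expression Console per the labels, and the sources used here do not name its normalization. They were used as they stand. Symbols came from the platform annotation, where 9651 of 10335 probe sets had 1 symbol, 27 several and 657 none. Of these 9651 probe sets, 9625 matched GRCm38.p6 genes by Entrez ID, and they stood for 9636 genes in all, matched or not. A gene with several probe sets was taken by the one of highest mean. Limma 3.58.1 in R 4.3.3 was fitted to 6 group means of 17 arrays with a variance trend and Benjamini-Hochberg adjustment at 0.05. The number of arrays limits the precision, and p-values measure the spread between these arrays, from experiments on several mice each.

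The paper describes 3 independent experiments, and a shared replicate number was taken to mean a shared experiment, although deviations from group means correlated by only 0.008, 0.071 and 0.144 within numbers 1, 2 and 3 and by -0.033 between them. Named genes were all past the threshold, the 12 largest per direction at an unadjusted p under 0.01 without overlap, up to 5 per list at an unadjusted p under 0.05, the 2 brightest per list, and genes the study names. Other list members are named to describe their list. The comparison, genes and lists were chosen with earlier results of these data known, so list counts and medians carry no test. Groups were read as not overlapping over a gap of 0.1. Methods were tested on simulated data. Alternatives are given in the closing section.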

Additional observations from a re-analysis of the deposited data

Results flagged for a closer look

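The array of untreated JAK2V617F+ replicate 3, which the comparison leaves out, was above every untreated JAK2V617F- array for 5 of the 6 genes that rose. It read 12.04 for Tpsab1, 11.9 for Tph1, 9.26 for Mycn, 5.14 for Tpsb2 and 2.97 for Lif. The first 3 were close to the 2 JAK2V617F+ arrays in use, while Tpsb2 and Lif were over 5 log2 units below them. Of the 84 probe sets higher and the 118 lower at an unadjusted p under 0.01, this array lay beyond the range of the controls on the same side for 48 (57.1%) and 94 (79.7%), against 35.2% and 50.7% of all probe sets with a positive or negative difference. It was dim as a whole, and its part in those counts was not tested.

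The genotype difference of Cry2 in untreated cells differed from that in BA-treated cells by -6.70 (limma, adjusted p = 0.0382), and the excluded array, at 3.37, matched the other untreated JAK2V617F+ arrays. This test ran over 10335 probe sets, and 478 had an unadjusted p under 0.05 (4.63%).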

How the results depend on the processing

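The number of calls depended on the arrays and the model. With all 18 arrays Lif, Tpsb2, Xiap and Itm2a lost their call (limma adjusted p of 0.238, 0.172, 0.123 and 0.335). Over 8 fits that left out arrays, Tph1, Tpsb2, Mycn and Cry2 passed in 4, Tpsab1, Xiap and Itm2a in 2 and Lif in 1. Probe sets higher and lower were 3 and 1 with all 18 arrays, 0 and 0 with only the 5 untreated arrays, 3 and 1 with array weights, 9 and 1 with log2 signals under 4 raised to 4, 6 and 2 after quantile normalization, 8 and 2 without a variance trend, and 5 and 2 without dim probe sets. The methods' t-test, unpaired, gave 7 and 1 after Benjamini-Hochberg, 0 of them among the 8 calls, and 655 at an unadjusted p under 0.05. The paired test gave 1 and 1, again with 0 shared, and 442 at an unadjusted p under 0.05. Leaving out 1 array or 1 replicate number in turn gave 0 to 27 higher and 0 to 144 lower probe sets. Without JAK2V617F+ replicate 1, 144 probe sets were lower and 27 higher, the 8 calls among them, and without JAK2V617F+ replicate 2 there were 4 and 3, Cry2 alone being shared. In both the lone JAK2V617F+ array is assumed to vary like the other groups. For both of these fits the lower probe sets are given first, and for the fits that follow the higher ones. Without replicates 2 or 3 there were 0 calls, with 542 and 720 at an unadjusted p under 0.05 in limma, and without replicate 1 there were 2 and 19 with 0 shared. Without JAK2V617F- replicate 1 there were 3 and 0, without JAK2V617F- replicate 2 there were 5 and 2, and without JAK2V617F- replicate 3 there were 3 and 1. The cause was not tested.

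In the fit with a replicate block, 7 probe sets were higher and 2 lower, all 8 calls were kept and Cpa3 was added. At an unadjusted p under 0.05 it also gave 6 lower monocyte, macrophage or dendritic cell genes in place of 2. Lower B cell genes were 4 in place of 1. Over all 10335 probe sets, 829 were below that threshold in either direction in place of 757. The test of untreated against BA-treated cells then called 0 probe sets in place of 1, as it did after quantile normalization and without replicate 1, 2 or 3 (0 to 0). Against TNFR1 BA alone it called 0, and 1 with the replicate block or without a variance trend, and against TNFR2 BA alone 0, and 1 without a variance trend. At an unadjusted p under 0.05 these tests had 540 and 396 probe sets in limma. For the untreated comparison, lower monocyte, macrophage or dendritic cell genes and lower B cell genes were 4 and 3 with all 18 arrays. They were 0 and 0 without JAK2V617F- replicate 2. In these fits 1180 and 658 of all 10335 probe sets were below 0.05. The medians of these lists were -0.47 and -0.39 without replicate 1 of both genotypes.

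The median difference of the mast cell list was 2.86 without dim probe sets and 3.23 with signals under 4 raised to 4, and lay between 1.73 and 4.12 when replicates were left out. That of the erythroid list was 1.70 with all 18 arrays and 1.89 with the replicate block, and between 1.67 and 2.08 when replicates were left out. The mast cell median was 1.73 without replicate 1, 2.10 without JAK2V617F+ replicate 1 and 2.33 without JAK2V617F- replicate 1. Of the 24 list medians 14 changed sign under some alternative. Those that moved by at least the spread between arrays did so with all 18 arrays to 0.31 (JAK-STAT components), -0.56 (NF-kB targets), 0.00118 (MAP kinases) and -0.075 (cell cycle), without dim probe sets to 1.95 (stroma) and 0.14 (JAK-STAT components), and with the replicate block to 0.061 (clock). When replicates were left out they ranged from -0.34 to 0.43 (JAK-STAT components), -0.52 to 0.20 (NF-kB targets), -1.09 to 0.15 (apoptosis) and -2.58 to 0.067 (Y-linked genes). Where a group is at the lowest value, the size of a difference is uncertain. The dim group was under 4 on every array for 40 of the 84 higher and 28 of the 118 lower probe sets at an unadjusted p under 0.01.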
